A study of Temnothorax rugatulus with 32 samples.

Results

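The contigs described here are 23 assembled transcript fragments whose best database hit was an ant protein named for mitochondrial energy metabolism or mitochondrial upkeep. They were taken from 228763 contigs by the words mitochondrial, cytochrome c oxidase, NADH dehydrogenase, ATP synthase, cytochrome b-c1, succinate dehydrogenase or enoyl-CoA hydratase in the protein name, with ribosomal, tRNA, peroxisomal and P450 names left out. Only the authors' deposited tables of age differences carry protein names. They name a best hit for 1073 contigs, and an ant is the best hit for 771. The 23 contigs were therefore chosen on age: 22 because the authors' deposited fat body table lists them as differing between old and young queens, and 1 because the brain table does. No ant contig in these tables was named NADH dehydrogenase, cytochrome b-c1 complex or succinate dehydrogenase, so those respiratory complexes are not represented.

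The series asked how gene expression differs between old and young queens of the ant Temnothorax rugatulus. Brain and fat body were dissected from the same 16 queens, all collected in the field, and each tissue of each queen gave 1 RNA-seq library. The 4 groups are old brain, young brain, old fat body and young fat body, with 8 queens in each. The labels give age only as old or young, with no age in years, and no treatment or genotype. The replicates are separate queens, and brain and fat body with the same queen number come from the same animal.

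Mitochondria oxidise fatty acids, amino acids and sugar products, pass the electrons along the respiratory chain to cytochrome c oxidase, and use the resulting proton gradient to make ATP. Nearly all of their proteins are encoded in the nucleus and imported through the TOM and TIM complexes, while a small mitochondrial genome is kept up and read by its own set of enzymes. The fat body is the insect organ of storage and intermediary metabolism, comparable in part to liver and adipose tissue, and the brain is a tissue with a high demand for ATP.

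Levels are CPM, counts per 1000000 counts of a library, scaled over all 32 libraries by the trimmed mean of M values (TMM). Differences are log2 differences from edgeR with the standard error (SE), and a contig is called where the p-value adjusted over all contigs tested is under 0.05. Total counts ran from 13861667 to 33461227 per library. The 100 most abundant contigs took 45.1% to 56.5% of the counts in old fat bodies, 37.1% to 50.6% in young fat bodies and 17.2% to 23.7% in brains, and the TMM factors were 1.34 to 1.58 in brains and 0.578 to 0.956 in fat bodies. The choice of scaling therefore bears on every comparison between tissues: with total counts alone, the median tissue difference of all contigs moved by -1.01 on the log2 scale, from -0.39 to -1.40. The median age difference in the fat body moved from 0.01 to -0.29, and that in the brain from 0.01 to 0.04.

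Of the 23 contigs, 21 passed the filter on low counts in each comparison. The other 2 were close to 0. The contig named probable ketol-acid reductoisomerase, an enzyme of branched-chain amino acid synthesis in plants, fungi and bacteria, had no count in any young library. In old fat bodies it reached at most 0.462 CPM and was at 0 in 3 of 8 libraries. The contig named Pgam5, a mitochondrial protein phosphatase, stood at 0.361 ± 0.279 CPM (SD, n = 8) in old fat bodies and 0.0396 ± 0.0626 CPM in young ones, with 0.139 ± 0.122 CPM in old against 0.0699 ± 0.108 CPM in young brains. Both fell under that filter and enter no test below; the authors' deposited table gives them adjusted p of 0.0459 and 0.0392 for age in the fat body.

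In the old fat body, the contigs of import, mitochondrial RNA and DNA, the respiratory chain and the carriers stood lower than in the young fat body. Those placed under fatty acid metabolism or under central carbon and amino acid metabolism mostly stood higher. Of the 20 contigs that the fat body table chose and that passed the filter, 13 were lower and 7 higher in old queens. These counts follow from the choice of the contigs and carry no test; over all 27664 contigs tested in the fat body, 0.647% were called for age, 0.452% as higher and 0.195% as lower in old queens. The median log2 difference of the 20 was -0.53 against 0.01 over all contigs, and single values ran from -1.31 to 1.61. By role, 3 of 3 import contigs, 3 of 3 for mitochondrial RNA and DNA, 3 of 3 for cytochrome c oxidase and ATP synthase, and 2 of 2 carriers were lower in old queens. All 3 contigs of central carbon and amino acid metabolism were higher, and so were 3 of 4 placed under fatty acid metabolism. The latter count includes NUDT19, a hydrolase of coenzyme A and its esters. In bulk tissue, fewer cells of a type and less RNA per cell cannot be told apart.

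Cytochrome c oxidase subunit 4, a nuclear-encoded subunit of the terminal respiratory complex, ranged in old fat bodies from 149.5 to 231 CPM with a median of 191 CPM. In young fat bodies it ranged from 218 to 331 CPM with a median of 281 CPM. All 8 old queens were under the young median, and the ranges overlapped only at their ends. The log2 difference was -0.59 ± 0.13 (SE). In brains the same contig was at 57.7 to 137 CPM in old queens, with a median of 73.4 CPM, and at 76.7 to 106 CPM in young queens, with a median of 93.7 CPM. The old brains thus spread more widely than the young ones and overlapped them on both sides.

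The cytochrome c oxidase copper chaperone, which carries copper to the complex during its assembly, was at 6.93 to 9.70 CPM in old fat bodies, with a median of 8.02 CPM. It was at 9.78 to 12.4 CPM in young fat bodies, with a median of 11.0 CPM. The groups did not overlap, and the log2 difference was -0.43 ± 0.15. This contig, methylmalonate-semialdehyde dehydrogenase and acyl-CoA synthetase family member 2 were the 3 whose fat body groups did not overlap. Over all contigs tested in the fat body, 0.488% had groups without overlap. The 3 were chosen on this contrast, so their number follows in part from the choice and carries no test. In brains the copper chaperone was at 8.18 ± 2.61 CPM in old against 7.81 ± 1.81 CPM in young queens.

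ATP synthase subunit s, known in mammals as coupling factor B, was at 7.81 to 15.7 CPM in old fat bodies, with a median of 9.98 CPM. It was at 13.7 to 27.4 CPM in young fat bodies, with a median of 20.1 CPM. All 8 old queens were under the young median, and the log2 difference was -0.91 ± 0.22. It was the contig of the respiratory chain and ATP synthase with the largest age difference of the 3.

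The import contigs name the entry receptor and the inner membrane channel. TOM20, the outer membrane receptor for presequences, was at 50.1 to 116 CPM in old fat bodies, with a median of 68.6 CPM, and at 87.5 to 164 CPM in young ones, with a median of 119 CPM. Queen O-426 alone carried the old group above 75.8 CPM. The log2 difference was -0.77 ± 0.18. Tim17-B and Tim23, which form the channel for presequence proteins, showed the same order. Tim17-B was at 140 ± 32.4 CPM in old against 215 ± 45.8 CPM in young fat bodies, which gave a log2 difference of -0.62 ± 0.17. Tim23 was at 11.3 ± 2.94 CPM in old against 18.4 ± 4.34 CPM in young fat bodies, which gave a log2 difference of -0.70 ± 0.21. In each of the 3 import contigs all 8 old fat bodies were under the young median while the ranges overlapped.

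The next 3 enzymes act on mitochondrial nucleic acids. Polyribonucleotide nucleotidyltransferase 1, which processes and degrades mitochondrial RNA, was at 1.72 to 3.76 CPM in old fat bodies, with a median of 2.73 CPM, and at 2.49 to 12.1 CPM in young ones, with a median of 5.19 CPM. The young queens spread far more than the old ones, and the log2 difference was -1.19 ± 0.34. MGME1, an exonuclease that keeps up mitochondrial DNA, was at 6.27 ± 2.60 CPM in old against 11.9 ± 3.13 CPM in young fat bodies, which gave a log2 difference of -0.92 ± 0.27. The mitochondrial poly(A) RNA polymerase, which adds tails to mitochondrial transcripts, was at 12.0 ± 2.75 CPM in old against 17.8 ± 3.16 CPM in young fat bodies, which gave a log2 difference of -0.57 ± 0.17. For that polymerase 7 of 8 old queens were under the young median.

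Calcium uptake protein 3, a partner of the mitochondrial calcium uniporter, was at 7.63 to 16.2 CPM in old fat bodies, with a median of 10.9 CPM. It was at 12.4 to 39.4 CPM in young fat bodies, with a median of 27.1 CPM. Among the 13 contigs lower in old fat bodies this one had the largest log2 difference, -1.31 ± 0.23. ABCB10, an inner membrane ABC transporter tied to haem synthesis, was at 26.3 to 86.0 CPM in old fat bodies, with a median of 56.4 CPM, and at 70.7 to 184 CPM in young ones, with a median of 110.0 CPM. Its log2 difference was -0.95 ± 0.26. The same queens stood at the ends of the ABCB10 range in both tissues: O-603 was lowest and O-796 highest among the old, and Y-594 lowest and Y-503 highest among the young, in brain and fat body alike.

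The enzymes placed under fatty acid metabolism went mostly the other way. Isoform 1 of the contig named probable enoyl-CoA hydratase, which adds water to the double bond in beta-oxidation, was at 242 to 596 CPM in old fat bodies, with a median of 309 CPM. It was at 147 to 258 CPM in young fat bodies, with a median of 206 CPM. All 8 old queens were above the young median, and the log2 difference was 0.86 ± 0.20. NUDT19, a Nudix hydrolase that in mouse cleaves coenzyme A and its esters, was at 569 to 1053 CPM in old fat bodies, with a median of 834 CPM, and at 145 to 607 CPM in young ones, with a median of 404 CPM. Its log2 difference was 1.11 ± 0.26, with Y-102 the lowest young library. Acyl-CoA synthetase family member 2, which activates fatty acids by joining them to coenzyme A, was at 13.8 to 20.9 CPM in old against 7.0 to 13.5 CPM in young fat bodies. These ranges did not overlap, and the log2 difference was 0.72 ± 0.17.

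Malonyl-CoA-acyl carrier protein transacylase was the exception among the fatty acid enzymes. It loads the malonyl unit for mitochondrial fatty acid synthesis rather than for breakdown. It was at 40.6 ± 6.10 CPM in old against 56.9 ± 6.14 CPM in young fat bodies, which gave a log2 difference of -0.49 ± 0.12. All 8 old queens were under the young median.

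Among the carbon and amino acid enzymes, methylmalonate-semialdehyde dehydrogenase, which completes valine breakdown, was at 293 to 585 CPM in old fat bodies, with a median of 373 CPM. It was at 89.6 to 237 CPM in young fat bodies, with a median of 183 CPM. The groups did not overlap, and the log2 difference was 1.19 ± 0.21. Kynurenine/alpha-aminoadipate aminotransferase, an enzyme of tryptophan and lysine breakdown, was at 16.2 to 124 CPM in old fat bodies, with a median of 74.9 CPM, and at 5.70 to 42.6 CPM in young ones, with a median of 23.0 CPM. It had the largest log2 difference of the 20, 1.61 ± 0.47, and also the widest spread, and O-189 and O-426 lay within the young range. Its adjusted p in the authors' deposited table, 0.0495, was the closest to the limit at which that table ends; contigs beyond that limit are not listed there. The 2-oxoglutarate dehydrogenase contig, which names a subunit of a citric acid cycle complex, was at 42.7 to 112 CPM in old against 17.5 to 51.4 CPM in young fat bodies, which gave a log2 difference of 1.04 ± 0.24.

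A-kinase anchor protein 1 tethers protein kinase A to the outer mitochondrial membrane. It was at 53.4 ± 14.6 CPM in old against 32.3 ± 6.43 CPM in young fat bodies, which gave a log2 difference of 0.72 ± 0.18. The CAF17 homolog belongs to a family that in yeast assembles iron-sulphur clusters. It was at 50.4 ± 6.97 CPM in old against 65.3 ± 6.52 CPM in young fat bodies, and its log2 difference of -0.37 ± 0.12 was the smallest of the 20.

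**Figure D1:**
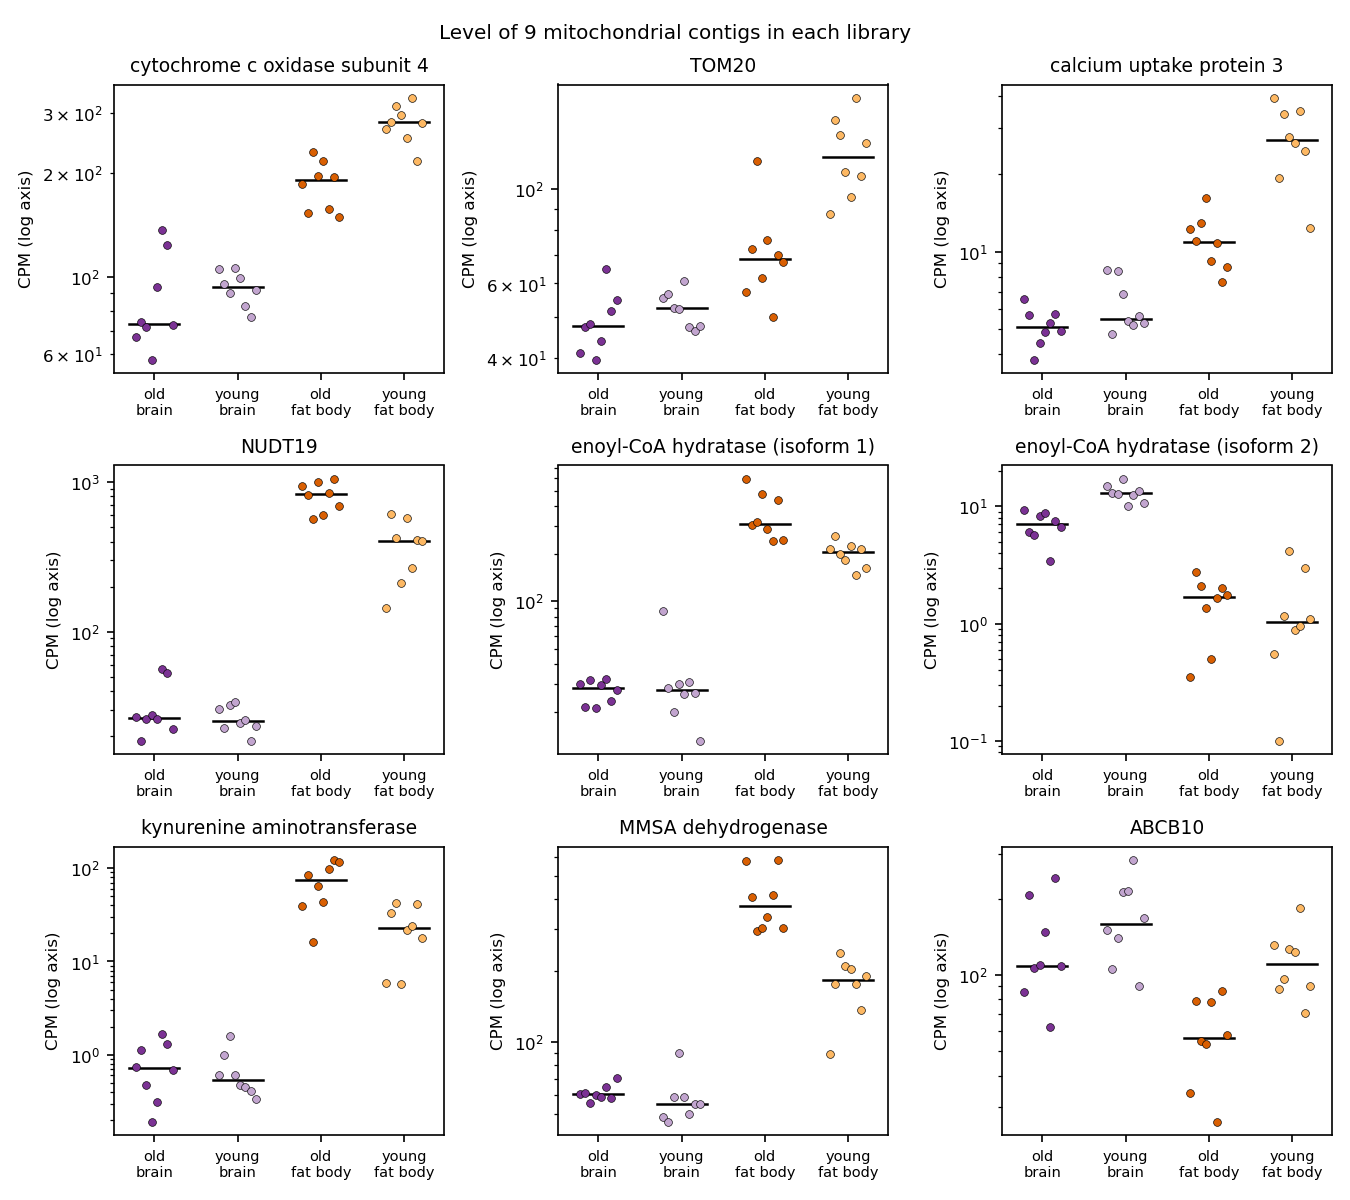
Level of 9 of the contigs in each of the 32 libraries, in CPM on a log axis that differs between panels. Each point is 1 library, bars are medians of 8 queens, and the 1 library with no count (isoform 2 of enoyl-CoA hydratase, young fat body) is drawn at 0.1. MMSA stands for methylmalonate-semialdehyde. In the first 3 panels the young fat body median lies above the old one, for NUDT19 the reverse, and isoforms 1 and 2 of enoyl-CoA hydratase are high in opposite tissues.

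Queen by queen, the mean log2 deviation of the 13 contigs from the young fat body mean was -0.98 to -0.34 in old fat bodies, with a median of -0.73, and -0.23 to 0.20 in young ones. For the 7 contigs higher in old queens it was 0.51 to 1.46 in old fat bodies, with a median of 1.07, and -0.58 to 0.33 in young ones. Neither set of ranges overlapped in the fat body, which the choice of the contigs fixes. From the young brain mean, the 13 were at -0.40 to 0.05 in old brains (median -0.16) and -0.22 to 0.12 in young ones (median 0.03). The 7 were at -0.21 to 0.41 in old brains (median -0.01) and -0.29 to 0.35 in young ones (median -0.09). O-426 was the highest old fat body for 8 of the 13 contigs lower in old queens. Leaving it out moved the median of the 20 from -0.53 to -0.59.

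**Figure D2:**
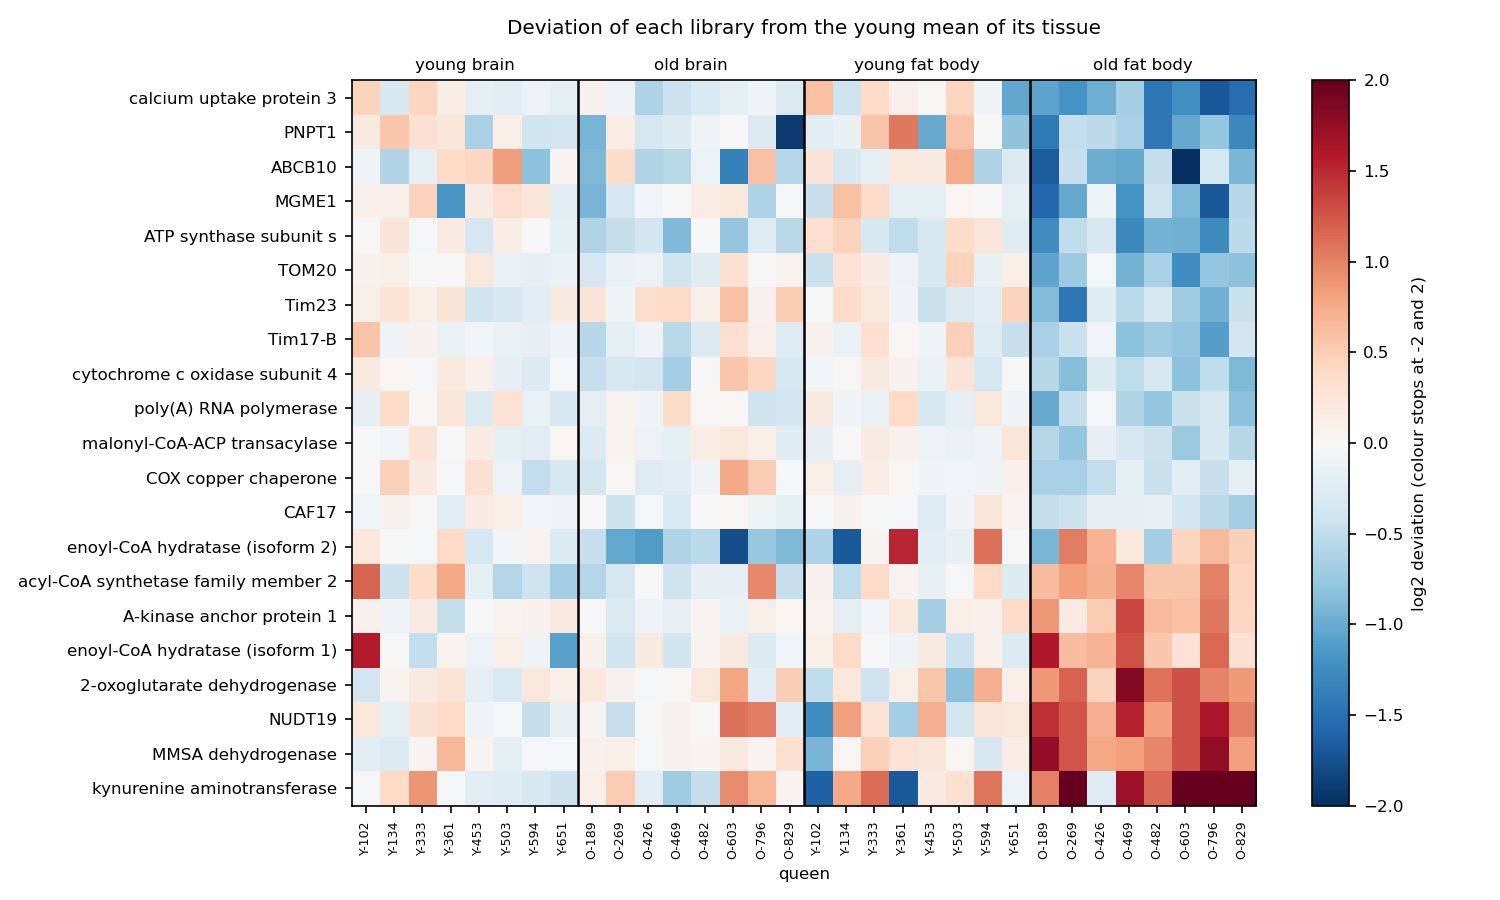
Log2 deviation of each library from the mean of the young libraries of the same tissue, for 21 contigs ordered by their age difference in the fat body, after adding 0.5 to the CPM. Red is higher and blue lower. The 8 old fat bodies at the right are mostly blue for the upper 13 contigs and red for the lower 7, and the old brains deviate less on average.

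In the brain, none of the 20 contigs chosen on the fat body table was called for age. The brain libraries were not used to choose these contigs, but they come from the same queens, so this test is not independent of the choice. edgeR called 0 of 40572 contigs for age in the brain (0.0%), with 1882 contigs (4.64%) at an unadjusted p under 0.05. Among the 20 contigs 2 had such a p: ATP synthase subunit s and Tim23. DESeq2 called 615 of the 82205 contigs it gave an adjusted p (0.748%), and limma-voom called 0 of 40572. Neither called any of the 20. With shares this low over all contigs, the lack of calls says little about the 20. The 20 differences ran from -0.48 to 0.33 with a median of -0.06, against 0.01 over all contigs.

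ATP synthase subunit s was at 3.79 to 7.44 CPM in old brains, with a median of 5.04 CPM, and at 5.75 to 8.96 CPM in young ones, with a median of 7.37 CPM. The log2 difference was -0.48 ± 0.15 (SE; edgeR unadjusted p = 0.0056, adjusted p = 0.82), with 7 of 8 old brains under the young median. Summed over its assembly component, the difference turned to 0.16. Tim23 was at 6.40 to 10.6 CPM in old brains and 5.06 to 8.31 CPM in young ones, which gave a log2 difference of 0.33 ± 0.15 (edgeR unadjusted p = 0.047, adjusted p = 1), opposite in sign to its fat body value of -0.70. Summed over its component the brain difference was 0.05. NUDT19 and ABCB10 had brain differences of 0.32 ± 0.24 and -0.32 ± 0.29. Polyribonucleotide nucleotidyltransferase 1 had -0.44 ± 0.34, which became 0.16 when its component was summed.

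Side by side, 4 of the 7 contigs higher in old fat bodies and 10 of the 13 lower ones had the same sign in the brain. For the same reason these counts carry no test. Single brain libraries weighed on the spread: O-603 was the highest old brain for 12 of the 21 contigs, and without that queen still 0 of the 20 were called. O-603 had a total count of 16951384, toward the low end of the old brains, which ran from 13861667 to 27434445. Young brains ran from 23826705 to 33461227. Whether depth bore on the brain values was not tested.

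**Figure D3:**
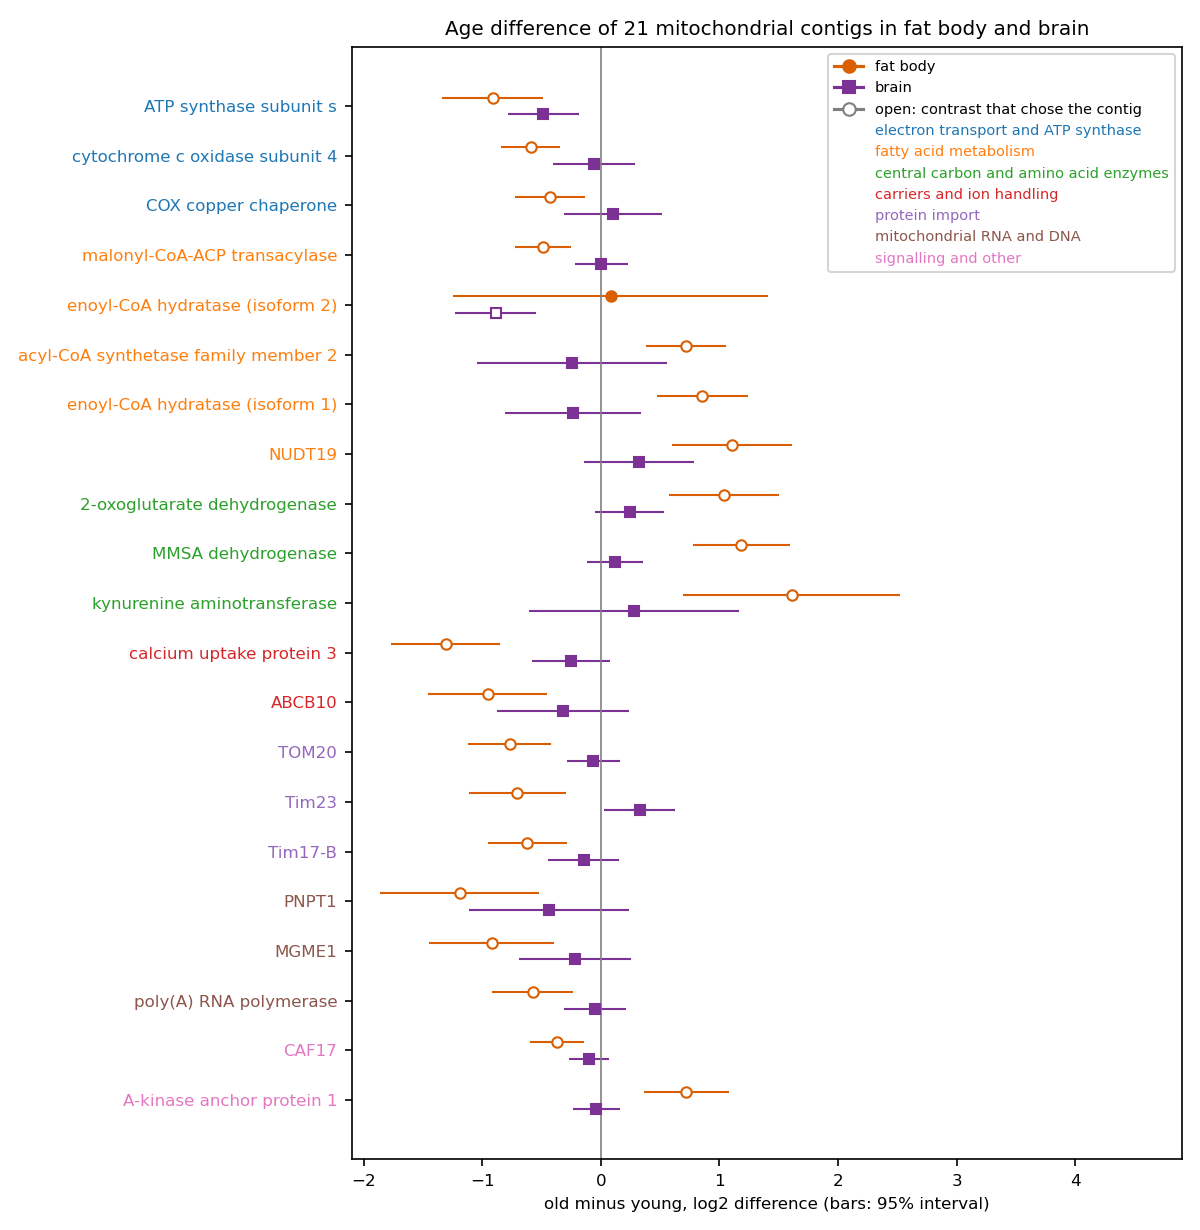
Old minus young log2 difference with its 95% interval in the fat body (circles) and the brain (squares) for 21 contigs, coloured by role. COX stands for cytochrome c oxidase, ACP for acyl carrier protein and PNPT1 for polyribonucleotide nucleotidyltransferase 1. Open symbols mark the contrast that chose the contig and are a description only. Fat body values reach from -1.31 to 1.61, and the 20 brain values with filled symbols lie between -0.48 and 0.33.

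Isoform 2 of enoyl-CoA hydratase was the contig taken from the brain table. It was at 3.43 to 9.23 CPM in old brains, with a median of 7.10 CPM, and at 10.1 to 17.2 CPM in young brains, with a median of 12.9 CPM. The groups did not overlap, against 0.0542% of all contigs tested in the brain, and the log2 difference was -0.89 ± 0.18. Both are given as a description, since this contrast chose the contig. The authors' deposited table gives it an adjusted p of 0.0017. In the fat body, which did not choose it, it was at 0.353 to 2.77 CPM in old against 0 to 4.12 CPM in young queens. That difference was 0.08 ± 0.68 with a 95% interval of -1.25 to 1.41 (edgeR adjusted p = 0.98), too wide at these low counts to place it on either side of 0.

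With TMM scaling, most of the contigs were more abundant in the fat body than in the brain. Averaged over both ages, edgeR called 20 of the 21 contigs that passed the filter, 16 higher and 4 lower in the fat body. Of 48253 contigs tested, 65.2% were called, 25.2% as higher and 40.0% as lower in the fat body. With total counts in place of TMM the split of the 21 became 8 higher and 8 lower, while for all contigs it became 14.2% higher and 58.9% lower. Under either scaling 17 of the 21 lay above the median of all contigs. The contigs' own median was 0.88 against -0.39 over all contigs. The choice of the contigs tilts this comparison, since all but 1 had to be listed in the fat body table and so had counts there. Over the 27664 contigs that also passed the filter among fat body libraries, a set chosen after seeing the data, 40.6% were called higher and 23.9% lower in the fat body, with a median of 0.36. With total counts these shares were 23.2% and 47.4%, with a median of -0.66. Of the 21 contigs, 16 lay above that median under either scaling.

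The 5 contigs that stood furthest above the brain in the fat body were among those placed under fatty acid metabolism or central carbon and amino acid metabolism. Kynurenine/alpha-aminoadipate aminotransferase was at 0.191 to 1.67 CPM in old brains and 0.340 to 1.60 CPM in young brains, under every fat body library. Its log2 difference of fat body minus brain was 5.81 ± 0.39 (SE; edgeR adjusted p = 8.1e-14), a 56.3-fold ratio, higher in the fat body of 16 of 16 queens. Summed over its component of 11 contigs the difference was 2.68, a 6.43-fold ratio, and other contigs of the component held most of the brain signal. NUDT19 was at 18.6 to 56.1 CPM in old brains and 18.6 to 33.9 CPM in young brains, and differed by 4.26 ± 0.20 (edgeR adjusted p = 3e-17). Isoform 1 of enoyl-CoA hydratase differed by 3.18 ± 0.19 (edgeR adjusted p = 9.1e-15), acyl-CoA synthetase family member 2 by 3.05 ± 0.24 (adjusted p = 1.8e-12) and methylmalonate-semialdehyde dehydrogenase by 2.17 ± 0.13 (adjusted p = 3.6e-15). Summed over components, acyl-CoA synthetase family member 2 differed by 5.46. These 5 were called higher in the fat body under both scalings.

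Calcium uptake protein 3 with 1.61 ± 0.15, Tim17-B with 1.35 ± 0.11 and cytochrome c oxidase subunit 4 with 1.34 ± 0.11 were also called higher in the fat body under both scalings (edgeR adjusted p of 4.1e-11, 6.3e-12 and 2.4e-12 with TMM). The summed component of cytochrome c oxidase subunit 4 differed by 0.67. Its other contig, which held 59.7% of the component in old and 57.4% in young brains, was lower in the fat body, by -0.26 ± 0.07 (edgeR adjusted p = 0.0012). ATP synthase subunit s differed by 1.25 ± 0.14 (adjusted p = 1.9e-09); with total counts the difference was 0.26 and not called (adjusted p = 0.13), and summed over its component it turned to -0.57. Tim23 (0.91 ± 0.13), TOM20 (0.88 ± 0.10) and malonyl-CoA-acyl carrier protein transacylase (0.83 ± 0.08) were called higher in the fat body with TMM, but with total counts they stood at -0.10, -0.14 and -0.19. A further 4 with small differences turned as well: polyribonucleotide nucleotidyltransferase 1 from 0.71 ± 0.24 to -0.31, MGME1 from 0.47 ± 0.18 to -0.53, A-kinase anchor protein 1 from 0.43 ± 0.11 to -0.60 and the CAF17 homolog from 0.42 ± 0.07 to -0.59.

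The copper chaperone was the contig not called, with 0.27 ± 0.12 (edgeR adjusted p = 0.058) and -0.74 with total counts. With the queen as a block it was 0.31 and called (adjusted p = 0.047). It was also called without queen Y-102, Y-134, O-603 or O-796, with adjusted p of 0.028, 0.032, 0.022 and 0.038. MGME1 lost its call when its component of 4 contigs was summed, with 0.15 in place of 0.47 (edgeR adjusted p = 0.12), and also without queen O-426 (adjusted p = 0.059) or Y-134 (adjusted p = 0.055).

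Lower in the fat body under both scalings were isoform 2 of enoyl-CoA hydratase with -2.65 ± 0.38 (edgeR adjusted p = 3.7e-07), 2-oxoglutarate dehydrogenase with -1.50 ± 0.14 (adjusted p = 1.5e-10), ABCB10 with -0.88 ± 0.20 (adjusted p = 0.00021) and the mitochondrial poly(A) RNA polymerase with -0.88 ± 0.11 (adjusted p = 3.2e-08). In each of these 4 the brain was higher in 16 of 16 queens. The 2-oxoglutarate dehydrogenase contig was at 106 to 213 CPM in old against 94.6 to 149.9 CPM in young brains. Summed over its component the tissue difference was -0.56 in place of -1.50.

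**Figure D4:**
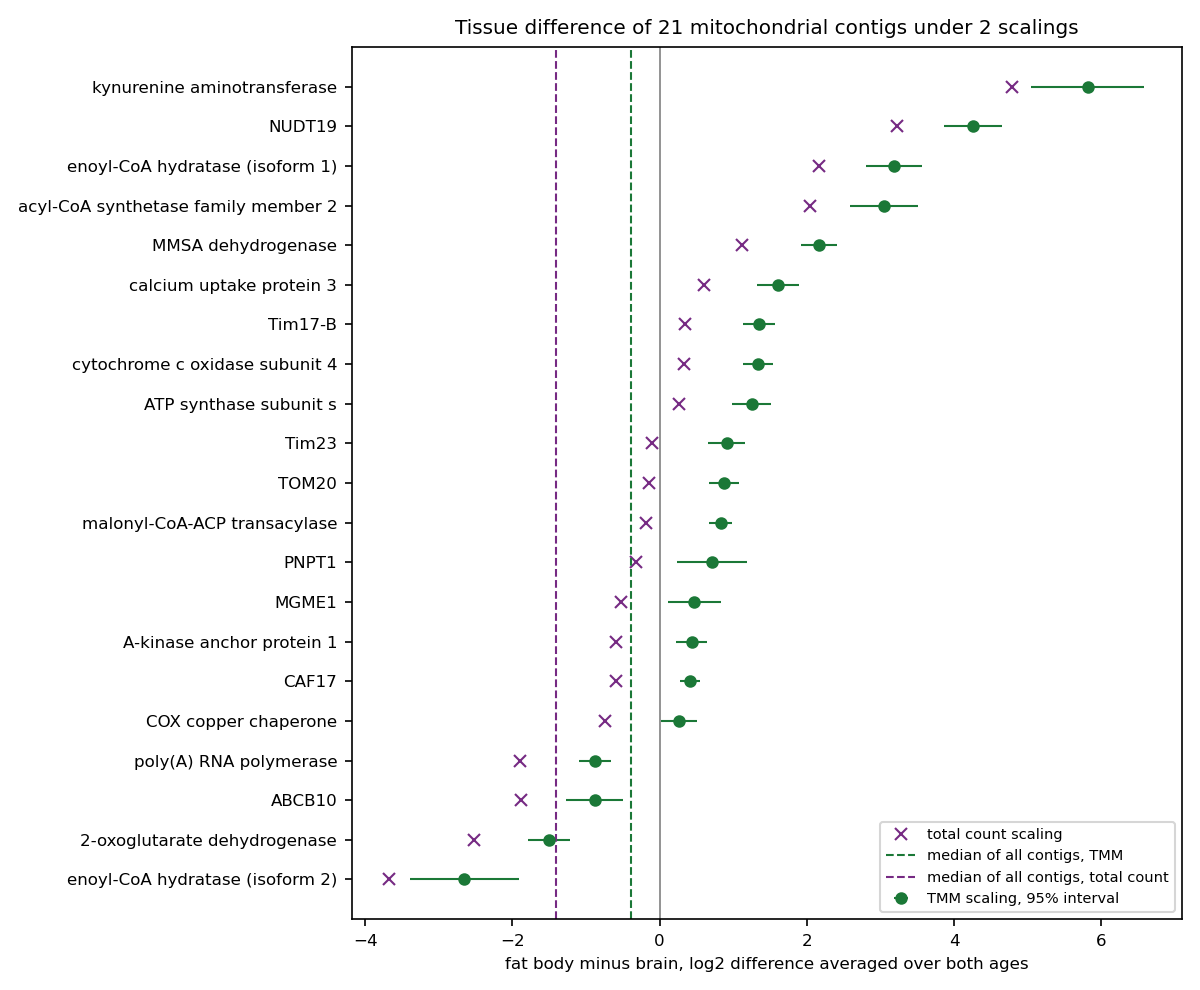
Fat body minus brain log2 difference averaged over both ages for 21 contigs, with TMM scaling (circles, 95% interval) and with total counts (crosses). Dashed lines mark the median of all contigs under each scaling. With total counts 8 of the 17 positive values turn negative, and 17 of the 21 contigs stay above the median of all contigs under either scaling.

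Within each age the picture was similar, although these comparisons share libraries with the choice of the contigs. In young queens 16 contigs were called higher and 3 lower in the fat body, against 57.0% of 35113 contigs tested (23.0% and 34.0%). With total counts the split was 11 and 6, against 4309 higher and 17806 lower among the 35113. In old queens 14 were higher and 4 lower, against 55.8% of 34574 contigs (26.1% and 29.7%). With total counts these were 5 and 12, against 3532 higher and 20234 lower among the 34574. Brain and fat body ranges did not overlap for 14 of the 21 contigs in young queens, against 35.9% of all contigs, and for 13 in old queens, against 33.0%. In young queens A-kinase anchor protein 1 (edgeR adjusted p = 0.69) and ABCB10 (adjusted p = 0.063) were not called, and ABCB10 was called there with the queen as a block. In old queens the copper chaperone, MGME1 and polyribonucleotide nucleotidyltransferase 1 were not called.

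Set out by their age direction, the 7 contigs higher in old fat bodies had a median tissue difference of 3.05, from -1.50 to 5.81, and the 13 lower ones a median of 0.83, from -0.88 to 1.61. This is a description of 2 small sets chosen on age.

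Levels of different contigs can be compared only per length, as CPM per 1000 bases. In young fat bodies cytochrome c oxidase subunit 4 with 294 ± 37.2 and TOM20 with 293 ± 62.9 came first, without a difference beyond their spread. Isoform 1 of enoyl-CoA hydratase followed with 155 ± 27.5, then Tim17-B with 111 ± 23.6 and ABCB10 with 85.7 ± 26.7, the last 2 within each other's spread. In old fat bodies isoform 1 of enoyl-CoA hydratase had the highest mean, 281 ± 98.7 CPM per 1000 bases. Cytochrome c oxidase subunit 4 with 195 ± 31.5, NUDT19 with 173 ± 38.2 and TOM20 with 172 ± 48.3 followed. The spreads of all of these overlapped, that of isoform 1 included. In young brains ABCB10 with 129 ± 48.3, TOM20 with 126 ± 12.4 and cytochrome c oxidase subunit 4 with 98.1 ± 11.0 led, and in old brains the same 3 led.

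Several contigs were 1 of a set of assembled variants. The 23 contigs belong to 22 assembly components, groups of contigs whose names share a stem, and these hold 60 contigs in all. In 8 components the contig stands alone, and the largest holds 11. The other contigs of a component carry no protein name in the tables used here. Reads shared by near-identical variants may be split between them in the deposited counts, so a single contig's value is less certain than its component's sum. In 13 components with several contigs that could be fitted, the summed age difference in the fat body had the same sign as that of the contig in 13, and was smaller in 11. Each sum holds a contig chosen on age, nearly always in the fat body, so these counts follow in part from the choice and carry no test. Between tissues the summed difference had the same sign as the contig's in 12 of the 13 and was smaller in 9.

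Both enoyl-CoA hydratase contigs belong to 1 component and divide by tissue. Isoform 1 made up 99.6% of the component's CPM in the fat bodies of old queens and 99.3% in those of young queens. In brains isoform 2 made up 20.4% in old and 28.7% in young queens. Summed, the component was higher in the fat body by 2.83 on the log2 scale, opposite to isoform 2 alone.

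Calcium uptake protein 3 has 3 variants. The contig of 3178 bases described above held 17.5% of the component in old and 24.5% in young fat bodies. Another contig of 1885 bases held most of the fat body signal, at 51.6 ± 20.5 CPM in old against 83.5 ± 15.3 CPM in young queens. The remaining contig, of 1723 bases, was at 25.4 ± 2.98 CPM in old against 29.5 ± 4.58 CPM in young brains but under 1 CPM on average in fat bodies, and its tissue difference was -5.52 (edgeR adjusted p = 7.2e-08). Summed, the age difference in the fat body was -0.85 in place of -1.31.

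In other components the summed age difference was much smaller. For 2-oxoglutarate dehydrogenase, with 4 contigs of 6795 to 6942 bases, it was 0.29 in place of 1.04, and the described contig held 15.8% of the component in old and 9.5% in young fat bodies. Its other contigs were split: that of 6795 bases stood higher in old fat bodies (0.72), those of 6813 and 6942 bases lower (-0.52 and -0.28). For A-kinase anchor protein 1 the summed difference was 0.03 in place of 0.72. Its other contig stood at 47.6 ± 39.6 CPM in old against 64.5 ± 51.0 CPM in young fat bodies. For ATP synthase subunit s, with 9 contigs, it was -0.41 in place of -0.91. Acyl-CoA synthetase family member 2 went the other way, with 1.31 in place of 0.72, and its other contig was at 106 ± 52.5 CPM in old against 38.1 ± 33.5 CPM in young fat bodies and under 1 CPM on average in brains.

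**Figure D5:**
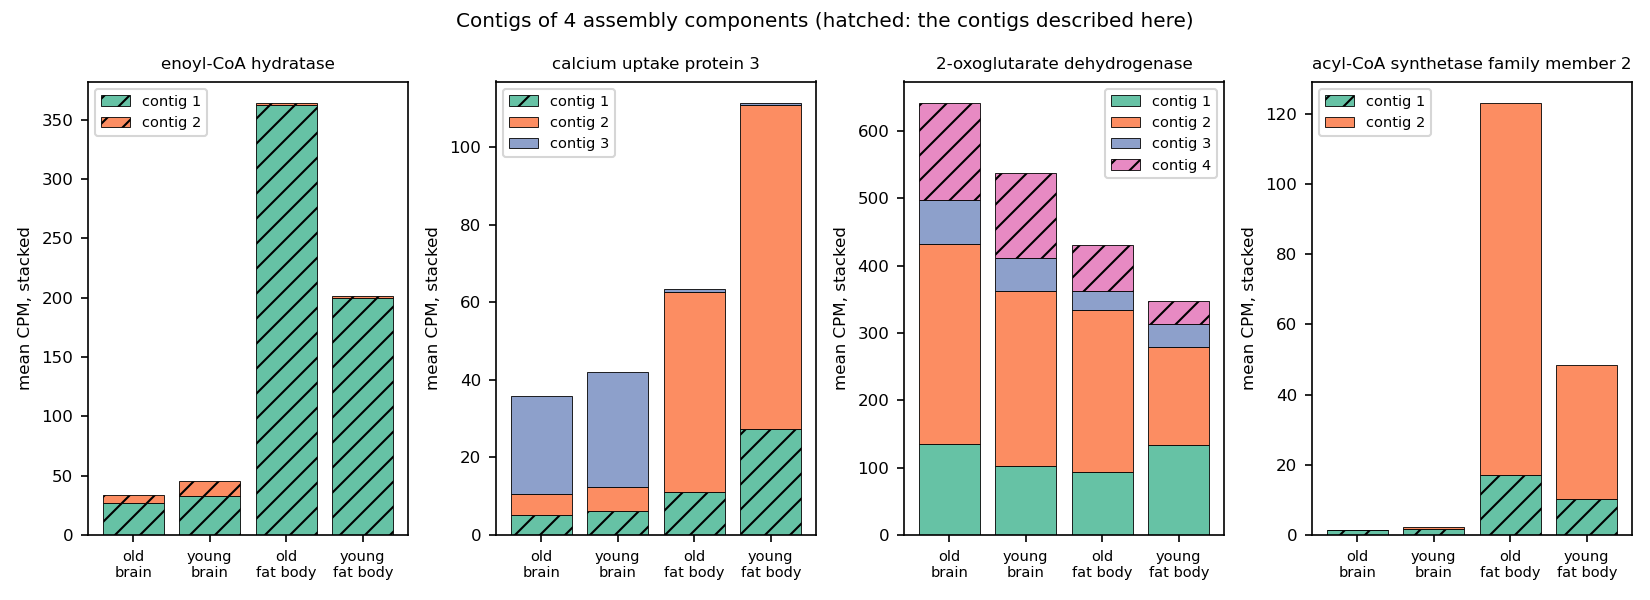
Mean CPM of each contig in 4 assembly components, stacked, for the 4 groups of 8 queens; hatched contigs are those described here. Enoyl-CoA hydratase isoform 1 fills 99.6% of its component in old fat bodies, and contig 3 of calcium uptake protein 3 is seen in brains and hardly in fat bodies.

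A further 3 lists from the same age tables show what surrounds these contigs. They too were chosen on age, so their fat body direction is no finding. The 6 contigs of mitochondrial translation, ribosomal proteins and a peptidyl-tRNA hydrolase, were all listed as lower in old fat bodies. The 28S ribosomal protein S5 was at 112 ± 16.7 CPM in old against 164 ± 29.3 CPM in young fat bodies. The 39S ribosomal protein L39 was at 35.3 ± 5.92 CPM in old against 58.2 ± 9.10 CPM in young fat bodies, and the 28S ribosomal protein S29 at 30.2 ± 4.68 and 46.4 ± 6.64 CPM. With TMM scaling all 6 were called higher in the fat body than in the brain, with a median of 0.75, against 25.2% of all contigs; with total counts 1 was called higher and 3 lower, with a median of -0.26. In the brain 0 of 6 were called for age by edgeR, with a median of -0.07.

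Of 4 other energy contigs, 2 were listed as higher and 2 as lower in old fat bodies. Phosphoenolpyruvate carboxykinase, a controlling enzyme of glucose synthesis, was at 1051 ± 467 CPM in old against 256 ± 191 CPM in young fat bodies. Facilitated trehalose transporter Tret1-2, which moves the main insect blood sugar, was at 479.5 ± 475 CPM in old against 35.8 ± 35.5 CPM in young fat bodies. Prohibitin-2, an inner membrane scaffold, was at 136 ± 20.9 CPM in old against 201 ± 42.6 CPM in young fat bodies.

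The same words matched 26 contigs whose best hit was not an ant, and these differed from the ant hits in kind. Of the 26, 25 were listed as higher in old queens, and 24 had a mean under 1 CPM over all libraries. Their median length was 654 bases against 2411 for the ant hits, and their median level was 0.0784 CPM against 24.8 CPM. The most abundant, named cytochrome c oxidase subunit II, was at 9.33 ± 10.6 CPM in old against 1.31 ± 1.02 CPM in young fat bodies.

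Marker lists for other cell types were read from the same named contigs. They too were chosen on age, so their differences between old and young queens follow from the choice. Markers that did not differ with age could not appear. Their part in the age differences of the fat body was not tested. Transferrin, the fat body marker found (2 contigs), summed to 976 to 8391 CPM in old fat bodies and 55.3 to 2681 CPM in young ones, and to at most 456 CPM in brains. The gut and Malpighian tubule list, 6 contigs by the words used, summed to 302 to 2063 CPM in old against 158 to 645 CPM in young fat bodies. Both maltase 2 variants of 1 component carried most of it, at 572 ± 414 and 420 ± 279 CPM in old against 85.9 ± 57.9 and 108 ± 113 CPM in young fat bodies. The words also matched antichymotrypsin-2, a protease inhibitor, at 7.09 ± 2.06 CPM in old against 12.0 ± 3.49 CPM in young fat bodies, and a tubulin polyglutamylase, neither of which marks gut. Chymotrypsin-2 reached at most 0.491 CPM in old fat bodies and was at 0 in every young one. The haemocyte marker croquemort was at 234 to 459 CPM in old against 98.0 to 244 CPM in young fat bodies. The muscle list, 2 contigs, summed to 1.21 to 7.50 CPM in old against 2.40 to 29.3 CPM in young fat bodies, and the neuron list, 5 contigs, to 90.9 to 180 CPM in old against 184 to 246 CPM in young ones. The neuron list did not mark brain as a whole: with TMM scaling 1 of its 5 contigs was called lower and 2 higher in the fat body, and with total counts 3 lower and 1 higher. The contig lower under both was acetylcholine receptor subunit alpha-7, at 6.26 ± 1.98 CPM in old brains and 0.0743 ± 0.21 CPM in old fat bodies. With TMM scaling synaptobrevin homolog 2 isoform X2 (1.08, edgeR adjusted p = 4.8e-07) and YKT6 (1.57, adjusted p = 8.9e-07) were higher in the fat body, and neuroligin-1, the most abundant, was not called (0.10, adjusted p = 0.39). A single arrestin contig stood for photoreceptors, at under 2 CPM in every library, and no germline marker was named.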

How the data were processed

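RNA-seq of 16 brains and 16 fat bodies was used. The counts deposited by the authors are unscaled whole numbers of reads per assembled contig, per the file headers. Tools named in the submitters' processing notes, with no role, are DESeq2 1.2.10, RSEM 1.3.0, Trimmomatic 0.36, FastQC 0.11.5 and both Bowtie and Bowtie2; for the assembler, the sources used here give none. RSEM can split reads between similar contigs. For the brain of Y-134 the labels record reads from 2 lanes put together. Per the file headers, the authors' deposited comparison tables hold a mean normalised signal, a log2 fold change with its test score, and a p-value, raw and adjusted. Only those for age name proteins.

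The deposited counts were tested with edgeR 4.0.16 (R 4.3.3; glmQLFit and glmQLFTest), TMM scaling, filterByExpr (minimum count 10, minimum total 15) and Benjamini-Hochberg adjustment over all contigs tested. The age contrasts used the 16 libraries of a tissue, the tissue contrast averaged over ages all 32 libraries, and the tissue contrasts within an age 16. DESeq2 1.42.0, limma 3.58.1 (voom), other scalings, no count filter, component sums, a queen block and leaving out queens were alternatives; total count scaling and the set of contigs passing the filter in fat bodies were chosen after seeing the data. The test was also run on simulated data drawn independently per library, which leaves out the pairing of tissues within queens. The outcome of that run is not given here and is not used for any result. Each SE was derived from the edgeR F statistic.

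Contigs and lists were chosen with earlier results of these data known. Named contigs are all that passed the filter, and up to 3 per related list by mean CPM. Contrasts that chose a contig carry no test. Tissues with the same number were taken from 1 queen, as the labels say. Their deviations from the group means correlated across contigs at r = 0.329 to 0.401, against at most 0.0742 between queens, and 16 of 16 brains matched their own fat body best; queen was left out of the main fits and used as a block in an alternative. No sequence is held in the files used.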

Additional observations from a re-analysis of the deposited data

Results flagged for a closer look

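In 84 groups of 8 libraries, each the values of 1 contig, 6 had a library far from the other 7; chance gives about 1 in 20 such groups. Of the 6, 4 were in young brains. Tim17-B stood at 106 CPM in the brain of Y-102, with the other young brains at 63.2 to 75.4 CPM. Isoform 1 of enoyl-CoA hydratase stood at 86.2 CPM in the same brain, with the others at 13.1 to 30.8 CPM. Methylmalonate-semialdehyde dehydrogenase stood at 89.8 CPM in the brain of Y-361, with the others at 46.2 to 59.0 CPM, and A-kinase anchor protein 1 stood low there, at 22.3 CPM against 29.4 to 35.7 CPM. Acyl-CoA synthetase family member 2 stood at 3.48 CPM in the brain of O-796, with the other old brains at 0.851 to 1.52 CPM. TOM20 stood at 116 CPM in the fat body of O-426, with the other old fat bodies at 50.1 to 75.8 CPM.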

How the results depend on the processing

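The calls between tissues were 20 of 21 contigs averaged over ages, and 16 to 21 under the alternatives. In young queens 19 were called (16 to 20) and in old queens 18 (14 to 18). Over all contigs tested the main fits called 65.2%, 57.0% and 55.8%. With the queen as a replicate block 21, 20 and 18 were called. Over all contigs that block called 32589 of 48253, 20792 of 35113 and 19816 of 34574. No alternative called any of the 20 contigs for age in the brain. The median age difference in the fat body of -0.53 ranged from -0.81 with total counts to -0.47 with DESeq2. Leaving out queens gave 19 to 21 calls between tissues, 0 in the brain, and medians of -0.59 to -0.49.

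Total count scaling reversed the tissue difference of 8 contigs: Tim23 (-0.10), the copper chaperone (-0.74), the CAF17 homolog (-0.59), MGME1 (-0.53), TOM20 (-0.14), malonyl-CoA-acyl carrier protein transacylase (-0.19), A-kinase anchor protein 1 (-0.60) and polyribonucleotide nucleotidyltransferase 1 (-0.31). This follows from the shift of all contigs by -1.01. Component sums reversed ATP synthase subunit s between tissues (-0.57) and in the brain (0.16), polyribonucleotide nucleotidyltransferase 1 in the brain (0.16), and isoform 2 of enoyl-CoA hydratase between tissues (2.83), whose component is mostly isoform 1. The age difference of isoform 2 in the fat body turned to -0.22 with total counts, and leaving out queens gave -0.12 (without Y-134) to 0.49 (without Y-361). The fat body age differences of the 20 contigs chosen there kept their sign under each alternative, and total counts lowered them, for the CAF17 homolog from -0.37 to -0.66 and for acyl-CoA synthetase family member 2 from 0.72 to 0.41.

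Ketol-acid reductoisomerase and Pgam5 were left out by the count filter. With no count filter edgeR called neither between tissues or for age in the brain, with adjusted p of 0.0736 or more.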
